A study of Homo sapiens with 6 samples.

Results

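The nuclear genes of the mitochondrial respiratory chain and ATP synthase were examined by nascent RNA sequencing in A375, an established line of human melanoma cells. The genes were chosen by symbol, as those starting with NDUF and the letter A, B, C, S or V with a number, those starting with UQCR, COX4 to COX8 or ATP5, the SDHA to SDHD genes, and USMG5. This gave 55 of the 12438 gene symbols in the deposited tables, from 90 of 22442 rows, with the row of the highest mean gene body density kept for each symbol. By the start of the symbol, complex I was represented by 21 genes, complex II by 3, complex III by 4, complex IV by 11 and complex V, the ATP synthase, by 16. By role, 46 encode subunits. The other symbols caught by the rule are 3 tissue isoforms of subunits (COX6B2, COX7A1 and COX7B2), 2 pseudogenes (UQCRBP1 and ATP5EP2), the paralog NDUFA4L2, the supercomplex factor COX7A2L, the read-through locus ATP5J2-PTCD1, and ATP5SL, which despite its name encodes no ATP synthase subunit. CYC1, the cytochrome c1 subunit of complex III, does not match the rule and was counted in a list of ubiquinone and cytochrome c genes. Other genes of the chain that are missing from this account were not analysed here.

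Global run-on sequencing (GRO-seq) lets RNA polymerase that is already engaged on a gene extend its transcript in isolated nuclei, so that reads report transcription in progress and not the store of mature mRNA. Cells had been kept for 48 h with 25 µM leflunomide, with 25 µM A771726, or with the solvent DMSO, and each of the 3 groups had 2 replicates. All cells were of the same line, and the labels name no engineered allele. The labels call the replicates duplicates without saying whether they were separate cultures, so p-values measure the spread between these samples, which may be technical. Leflunomide is a prodrug with an isoxazole ring, and A771726, also called teriflunomide, is the active metabolite in which that ring has opened.

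As background, complexes I and II pass electrons from NADH and succinate to ubiquinone, complex III passes them on to cytochrome c, and complex IV passes them to oxygen. Complexes I, III and IV pump protons as they do so, and the ATP synthase lets the protons flow back to make ATP. Dihydroorotate dehydrogenase (DHODH), the enzyme of pyrimidine synthesis that A771726 inhibits, sits in the inner mitochondrial membrane and also gives its electrons to ubiquinone. Most subunits are encoded in the nucleus, a set whose promoters are textbook targets of nuclear respiratory factor 1 (NRF1) and of the ETS-family factor GABP.

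The deposited values are the authors' means over the 2 replicates of a group: the read density over the promoter, the read density over the gene body, and the traveling ratio, which is promoter over gene body density. In the text a density is in the units of the deposited tables. These hold no DMSO ratio above 7.5. How this bears on the promoter and gene body comparisons with DMSO, and on the all-gene shares beside them, was not tested. The density of each library was recovered by solving the 3 deposited means of a row for the pair of libraries, which can be done where the promoter is above 0 in that group. A solution existed in all such rows, and 1 solution alone in 96.6% of them with leflunomide, 95.7% with A771726 and 92.4% in DMSO. Both libraries were recovered in all groups for 34 of the 55 genes and for 4984 genes overall that also passed a filter on low values, at or above the 30th percentile of mean gene body density. Such genes have promoter reads in every group, so they are not a random share. The recovered libraries are called library 1 and 2 and cannot be tied to the submitters' replicate letters. A single read at a promoter was taken to add 0.0347 and 0.0376 to the density in the leflunomide libraries, 0.0241 and 0.0313 in the A771726 libraries, and 0.0438 and 0.0520 in the DMSO libraries, so a promoter value often rests on a handful of reads. Promoter values above 0 were whole numbers of such reads in 73.7% of cases with leflunomide, 78.7% with A771726 and 78.7% in DMSO. Read numbers below are densities divided by these values, so they are approximate. Among lineage markers, SOX10 had a gene body density of 0.330 with leflunomide, 0.273 with A771726 and 0.329 in DMSO, above the 98th percentile of all genes each time. With leflunomide, with A771726 and in DMSO, MITF lay at percentiles 56, 56 and 36, and PMEL at 56, 59 and 32. S100A1 lay at percentiles 98, 97 and 97 and ERBB3 at 95, 93 and 95 in the same order. MLANA did not pass the filter, and TYR, TYRP1, DCT and S100B had no values. Of the epithelial, blood, fibroblast and endothelial markers in the tables, KRT14 alone passed it, with 0.0101 with leflunomide, 0.0039 with A771726 and 0.0204 in DMSO, while CDH1, COL1A1, VWF and the endothelial gene PECAM1 did not.

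As examples with a motif match, 3 promoter sequences are given for genes that the results return to. ATP5H is a subunit gene whose gene body density was lower than DMSO in both libraries of each compound. NDUFB4 had means above DMSO with both compounds, and SDHB belongs to complex II. The 3 sequences are not typical cases, and shares over the 44 promoters follow below. Each runs from 250 bases before to 50 bases after the transcription start in RefSeq on GRCh38.p14, and capitals mark the motif matches. The coordinates are chr17:75046920-75047219 on the minus strand for ATP5H (listed as ATP5PD), chr3:120596086-120596385 on the plus strand for NDUFB4, and chr1:17053983-17054282 on the minus strand for SDHB.
ATP5H: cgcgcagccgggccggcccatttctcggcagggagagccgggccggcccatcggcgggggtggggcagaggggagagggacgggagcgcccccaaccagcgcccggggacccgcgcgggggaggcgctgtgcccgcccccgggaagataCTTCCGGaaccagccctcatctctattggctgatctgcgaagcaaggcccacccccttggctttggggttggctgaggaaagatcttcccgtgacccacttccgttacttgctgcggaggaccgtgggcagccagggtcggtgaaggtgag
NDUFB4: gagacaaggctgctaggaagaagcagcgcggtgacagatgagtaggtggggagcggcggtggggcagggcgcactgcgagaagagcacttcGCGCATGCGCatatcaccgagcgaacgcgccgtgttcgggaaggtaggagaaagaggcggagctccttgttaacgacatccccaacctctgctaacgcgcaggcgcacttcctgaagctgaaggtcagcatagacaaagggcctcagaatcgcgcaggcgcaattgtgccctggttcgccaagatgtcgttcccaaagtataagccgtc
SDHB: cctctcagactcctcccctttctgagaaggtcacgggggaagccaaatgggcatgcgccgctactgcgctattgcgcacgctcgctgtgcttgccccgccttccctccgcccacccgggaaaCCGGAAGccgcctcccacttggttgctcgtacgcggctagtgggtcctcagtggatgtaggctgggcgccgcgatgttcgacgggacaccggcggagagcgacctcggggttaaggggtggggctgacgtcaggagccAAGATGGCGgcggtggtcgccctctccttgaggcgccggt
ATP5H carried 1 match to the ETS letters CCGGAAG, on the reverse strand, NDUFB4 carried the NRF1 letters (GCGCA followed directly by its reverse complement, TGCGC), and SDHB carried the ETS letters and the YY1 letters AAGATGGCG. Both strands were searched, and the last letters of the ETS word can also open the YY1 word. Of the 55 genes, 54 matched RefSeq by accession and 44 had a promoter there. Among these 44, the ETS letters were found in 14 (31.8%, against 22.5% of the 6336 tested genes with a promoter), the YY1 letters in 5 (11.4%, against 4.43%), and the NRF1 letters in 3, namely ATP5C1, NDUFB4 and SDHD (6.82%, against 2.46%). The SP1 letters GGGCGGGG were found in 10 (22.7%, against 44.8%). Over all 27305 genes in RefSeq the shares were 12.2% for ETS, 2.14% for YY1, 1.52% for NRF1 and 26.1% for SP1. A match describes letters in this window, and binding was not measured.

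Respiratory chain genes were transcribed above the typical gene in every group. Their median gene body density was 0.0416 with leflunomide, 0.0297 with A771726 and 0.0445 in DMSO, against 0.0294, 0.0206 and 0.0306 in the same groups for all genes. Of the 55 genes, 37 lay above the all-gene median with leflunomide, 37 with A771726 and 39 in DMSO. The densest was NDUFB10, an accessory subunit in the membrane arm of complex I. It had 0.359 and 0.411 in the leflunomide libraries, 0.408 and 0.317 in the A771726 libraries, and 0.591 and 0.548 in the DMSO libraries. Both libraries of each compound were therefore below both DMSO libraries. The next densest were UQCRQ of complex III, ATP5B, the catalytic beta subunit of the ATP synthase, and COX7C of complex IV. The highest value within complex II was that of SDHD. At the low end COX7B2, a testis isoform, had means of 0.0030 with leflunomide, 0.0018 with A771726 and 0.0030 in DMSO, and it alone did not pass the filter, which left 54 genes.

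With leflunomide the gene bodies of the chain stood close to DMSO. The median log2 change of the 54 genes, computed from the group means with a pseudocount of 0.0022 added, was −0.11, beside −0.06 for all 8706 genes tested. The changes ran from −1.84 to 0.75, with 21 genes above 0 and 33 below. None was at least 2-fold higher, beside 1.84% of all genes tested, and 4 were at least 2-fold lower, beside 4.49%. With a pseudocount 5 times larger 2 were. The share of genes below 0 in the whole table was 55.3%. By complex the median changes were 0.00 for complex I, 0.11 for complex II, −0.55 for complex III, −0.10 for complex IV and −0.27 for complex V. Complexes were assigned by the start of the symbol, so all but complex II include symbols not counted as subunits by role. Over the 46 subunit genes alone the median was −0.09. The complex III median is over 4 genes and includes the pseudogene UQCRBP1, at −1.84. The subunit genes of that complex caught by the rule had −0.44 (UQCRC1), −0.66 (UQCRFS1) and −0.08 (UQCRQ). The subunit gene CYC1, which the rule leaves out, had −0.38.

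**Figure D1:**
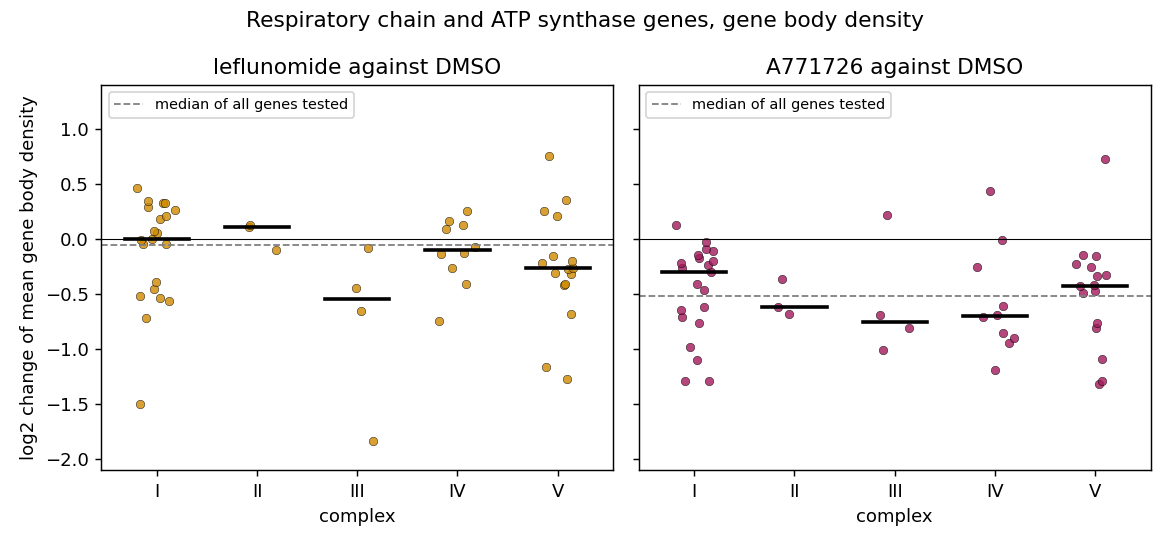
Log2 change of the authors' mean gene body density for each of 54 respiratory chain and ATP synthase genes, by complex, for leflunomide (left) and A771726 (right) against DMSO. Points are genes, black bars are medians of a complex, and the dashed line is the median of all 8706 genes tested: −0.06 with leflunomide and −0.52 with A771726, where most points lie below 0.

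The 4 genes past 2-fold with leflunomide were the pseudogene UQCRBP1 (log2 change −1.84), NDUFA6 (−1.50), ATP5O (−1.27) and ATP5H (−1.17). ATP5H encodes subunit d of the peripheral stalk, which holds the catalytic head of the ATP synthase still. Its gene body density was 0.0319 and 0.0361 with leflunomide, 0.0414 and 0.0208 with A771726, and 0.0779 and 0.0801 in DMSO. All 4 libraries of the compounds were below both DMSO libraries. In a limma fit to the 6 recovered libraries, its log2 change with leflunomide was −1.17 (95% interval −2.08 to −0.26, adjusted p = 0.96 over 4984 genes). The interval is that of a single gene, and the change did not pass the adjusted threshold.

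NDUFA6, a small accessory subunit of the matrix arm of complex I, had 0.0181 and 0.0112 with leflunomide and 0.0480 and 0.0426 in DMSO. The pairs did not overlap. With A771726 its promoter was at 0, so the libraries could not be recovered there, and the authors' mean was 0.0200. ATP5O, which encodes the OSCP subunit that joins the stalk to the head, had a mean of 0.0136 with leflunomide, 0.0195 with A771726 and 0.0359 in DMSO. Its A771726 libraries, 0.0191 and 0.0199, were both below the DMSO libraries, 0.0243 and 0.0475. UQCRBP1 had means of 0.0030, 0.0195 and 0.0164 with leflunomide, with A771726 and in DMSO. A pseudogene shares sequence with its parent gene, so its reads, and those of ATP5EP2, are uncertain.

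The highest changes with leflunomide were those of ATP5A1 (0.75), NDUFB4 (0.46), ATP5G1 (0.36) and NDUFB7 (0.35). ATP5A1 encodes the alpha subunit of the catalytic head. It had 0.0388 and 0.0518 with leflunomide, 0.0231 and 0.0234 with A771726, and 0.0280 and 0.0240 in DMSO, so both leflunomide libraries were above and both A771726 libraries below the DMSO pair. This placement was found in 5.16% of all 4984 genes. The limma log2 change with leflunomide was 0.74 (95% interval −0.01 to 1.49, adjusted p = 0.97). A second transcript of the gene, with other window limits, had means of 0.0379 with leflunomide, 0.0183 with A771726 and 0.0210 in DMSO. Its A771726 libraries, 0.0184 and 0.0181, overlapped its DMSO libraries, 0.0242 and 0.0178, so the placement below DMSO was not found there. NDUFB4, an accessory subunit of the membrane arm, had 0.0778 and 0.0511 with leflunomide, 0.0458 and 0.0553 with A771726, and 0.0357 and 0.0565 in DMSO, and its pairs overlapped.

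With A771726 nearly all gene bodies of the chain were lower than in DMSO, and so were those of most genes in the table. The median log2 change of the 54 genes was −0.47, beside −0.52 for all genes tested, so relative to the median gene it was 0.05. There were 4 genes above 0 and 50 below, and 85.5% of all genes tested were below 0. None was at least 2-fold higher, beside 0.839% of all genes, and 8 were at least 2-fold lower, beside 18.5%. With a pseudocount 5 times larger the 8 became 4. With every change taken relative to the median gene, none was at least 2-fold lower, beside 5.73% of all genes. How the authors scaled the libraries to each other is not given in the sources used here, so a lower density over most genes cannot be told apart from a difference in scaling, nor fewer active cells from less nascent RNA per cell. The median densities of the 3450 genes whose values could be assigned to a library were 0.0268 and 0.0219 in the A771726 libraries and 0.0394 and 0.0338 in the DMSO libraries. By complex, again assigned by the start of the symbol, the median changes with A771726 were −0.30 for complex I, −0.61 for complex II, −0.75 for complex III, −0.70 for complex IV and −0.42 for complex V. Over the 46 subunit genes alone, an alternative chosen after seeing the data, the median was −0.545. The complex III median again includes UQCRBP1, at 0.22, beside UQCRC1 (−0.69), UQCRFS1 (−0.81) and UQCRQ (−1.01). It leaves out the subunit gene CYC1, which had −0.11.

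All 8 genes past 2-fold encode subunits: ATP5G3 (log2 change −1.32), ATP5H (−1.29), NDUFC1 (−1.29), NDUFB8 (−1.29), COX7A2 (−1.19), NDUFA6 (−1.10), ATP5F1 (−1.09) and UQCRQ (−1.01). For ATP5H the limma log2 change with A771726 was −1.36 (95% interval −2.27 to −0.45, adjusted p = 0.15), and this adjusted p was the smallest among the genes of the chain. ATP5F1 encodes subunit b, the long helix of the same stalk. It had 0.0457 and 0.0364 with leflunomide, 0.0131 and 0.0315 with A771726, and 0.0577 and 0.0423 in DMSO. Its A771726 pair lay below both other pairs, with a limma log2 change against DMSO of −1.19 (95% interval −2.22 to −0.15, adjusted p = 0.19). ATP5J, which encodes coupling factor 6 of the stalk, had 0.0437 and 0.0284 with A771726 and 0.0643 and 0.0607 in DMSO, and its pairs did not overlap. Its mean with leflunomide, 0.0751, was the highest of the 3 groups.

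ATP5G1, ATP5G2 and ATP5G3 encode the same mature subunit c, which forms the rotating ring in the membrane. Differences between these genes were not tested. ATP5G3 had 0.0406 and 0.0412 with leflunomide, 0.0347 and 0.0069 with A771726, and 0.0608 and 0.0494 in DMSO. The A771726 libraries differed from each other by more than 2-fold, the second being the lower. ATP5G1 had 0.0324 and 0.0429 with leflunomide, 0.0726 and 0.0260 with A771726, and 0.0363 and 0.0216 in DMSO. Its log2 change with A771726, 0.73, was the highest among the genes of the chain, but the pairs overlapped, and without A771726 library 1 the limma estimate was −0.10. ATP5G2 had log2 changes of −0.26 with leflunomide and −0.48 with A771726. The catalytic beta subunit gene ATP5B had 0.141 and 0.109 with leflunomide, 0.0990 and 0.117 with A771726, and 0.166 and 0.127 in DMSO, with log2 changes of −0.22 and −0.43 for leflunomide and A771726.

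In complex I, NDUFB8, a membrane-arm subunit often used as a marker of an assembled complex, had 0.0518 and 0.0434 with leflunomide, 0.0343 and 0.0021 with A771726, and 0.0356 and 0.0600 in DMSO. The A771726 pair lay below the DMSO pair, but its first library was close to the lower DMSO value. The limma log2 change was −1.95 (95% interval −4.01 to 0.11, adjusted p = 0.23). It was −3.50 without A771726 library 1, an estimate that rests on the 1 remaining library at 0.0021, below the pseudocount of 0.0022. NDUFC1, another membrane-arm subunit, had 0.0271 and 0.0235 with leflunomide and 0.0168 and 0.0159 with A771726, and a DMSO mean of 0.0431. NDUFB11, of the same arm, had 0.0402 and 0.0174 with leflunomide, 0.0072 and 0.0161 with A771726, and 0.0263 and 0.0241 in DMSO. NDUFV3, an accessory subunit of the NADH-binding module, had means of 0.0145 with leflunomide, 0.0057 with A771726 and 0.0111 in DMSO.

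Complex II links the chain to the citric acid cycle. SDHA, its flavoprotein, had 0.0228 and 0.0225 with leflunomide, 0.0196 and 0.0109 with A771726, and 0.0293 and 0.0197 in DMSO. SDHB, its iron-sulfur subunit, had 0.0240 and 0.0242 with leflunomide, 0.0235 and 0.0094 with A771726, and 0.0262 and 0.0175 in DMSO. SDHD, a membrane anchor, had 0.0417 and 0.0252 with leflunomide, 0.0173 and 0.0193 with A771726, and 0.0428 and 0.0187 in DMSO. For all 3 genes the A771726 pair lay below the leflunomide pair, for SDHB by no more than 0.0235 against 0.0240, and 55.7% of all genes with recovered libraries had this placement. The leflunomide and DMSO pairs of the 3 genes overlapped.

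In complex III, UQCRQ, a small subunit near the ubiquinone pocket, had 0.153 and 0.0535 with A771726 and 0.287 and 0.133 in DMSO. These pairs overlapped. Its mean with leflunomide was 0.198, for which more than 1 pair of library values fitted. In complex IV, the small subunit gene COX7A2 had 0.0558 and 0.0857 with leflunomide, 0.0322 and 0.0336 with A771726, and 0.0968 and 0.0592 in DMSO. Its A771726 libraries were close together and below the 4 others, with a limma log2 change against DMSO of −1.15 (95% interval −2.05 to −0.25, adjusted p = 0.17). COX4I1, a subunit needed early in the assembly of the complex, was one of the 3 genes that were highest with A771726. It had 0.0616 and 0.0378 with leflunomide, 0.0468 and 0.0667 with A771726, and 0.0518 and 0.0308 in DMSO, all overlapping.

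**Figure D2:**
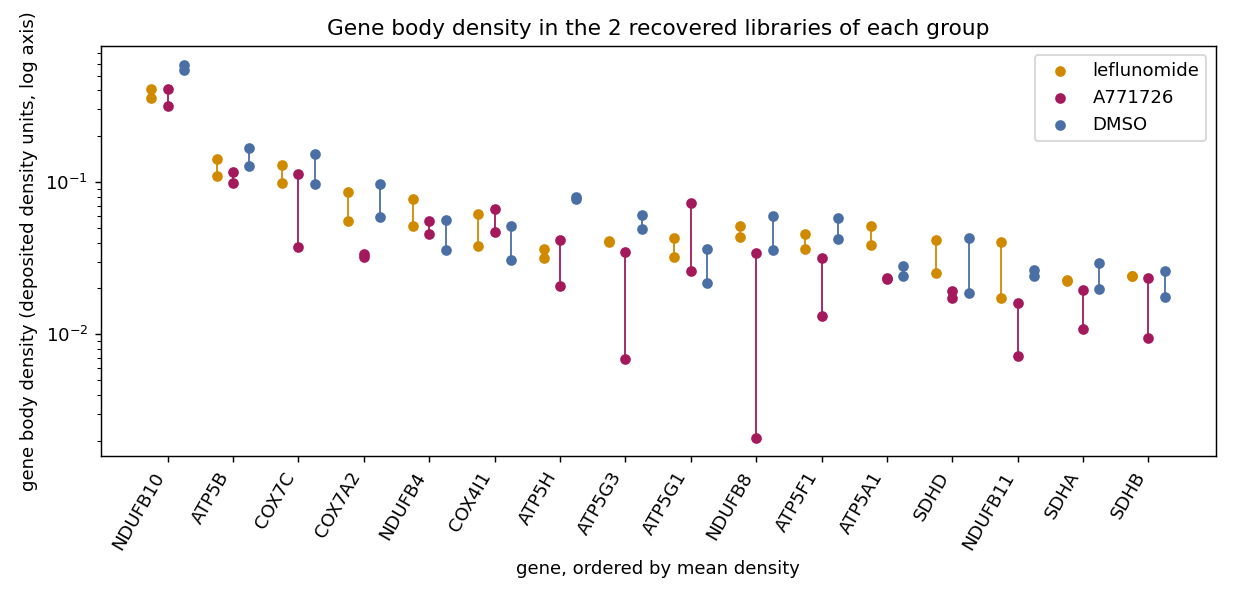
Gene body density, on a log axis, in the 2 recovered libraries of each group for 16 named genes whose libraries were recovered in every group, in order of mean density. A line joins the libraries of a group: ATP5H shows a DMSO pair (0.0779 and 0.0801) above the 4 other libraries, and NDUFB8 and ATP5G3 show A771726 pairs that are far apart.

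Over the 34 genes with recovered libraries, no change passed limma's test at an adjusted p of 0.05 in any of the 3 comparisons, and 0.0% of all 4984 genes did so. Among the alternatives, leaving out A771726 library 1 lowered the NDUFB8 estimate against DMSO. That fit has 1 A771726 library, in which NDUFB8 had 0.0021, below the pseudocount of 0.0022. With leflunomide, 1 gene (ATP5A1) had both libraries above both DMSO libraries, beside 14.1% of all genes, and 9 had both below, beside 21.4%. With A771726, 0 genes had both libraries above and 19 had both below, beside 2.01% and 55.8%. At an unadjusted p of 0.05, limma gave 0 higher and 1 lower with leflunomide, beside 1.48% and 3.31% of all genes. With A771726 it gave 0 higher and 6 lower, beside 0.241% and 22.3%. The smallest adjusted p of the 34 was 0.96 with leflunomide and 0.15 with A771726. The median width of the 95% interval to each side was 0.96 on the log2 scale.

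**Figure D3:**
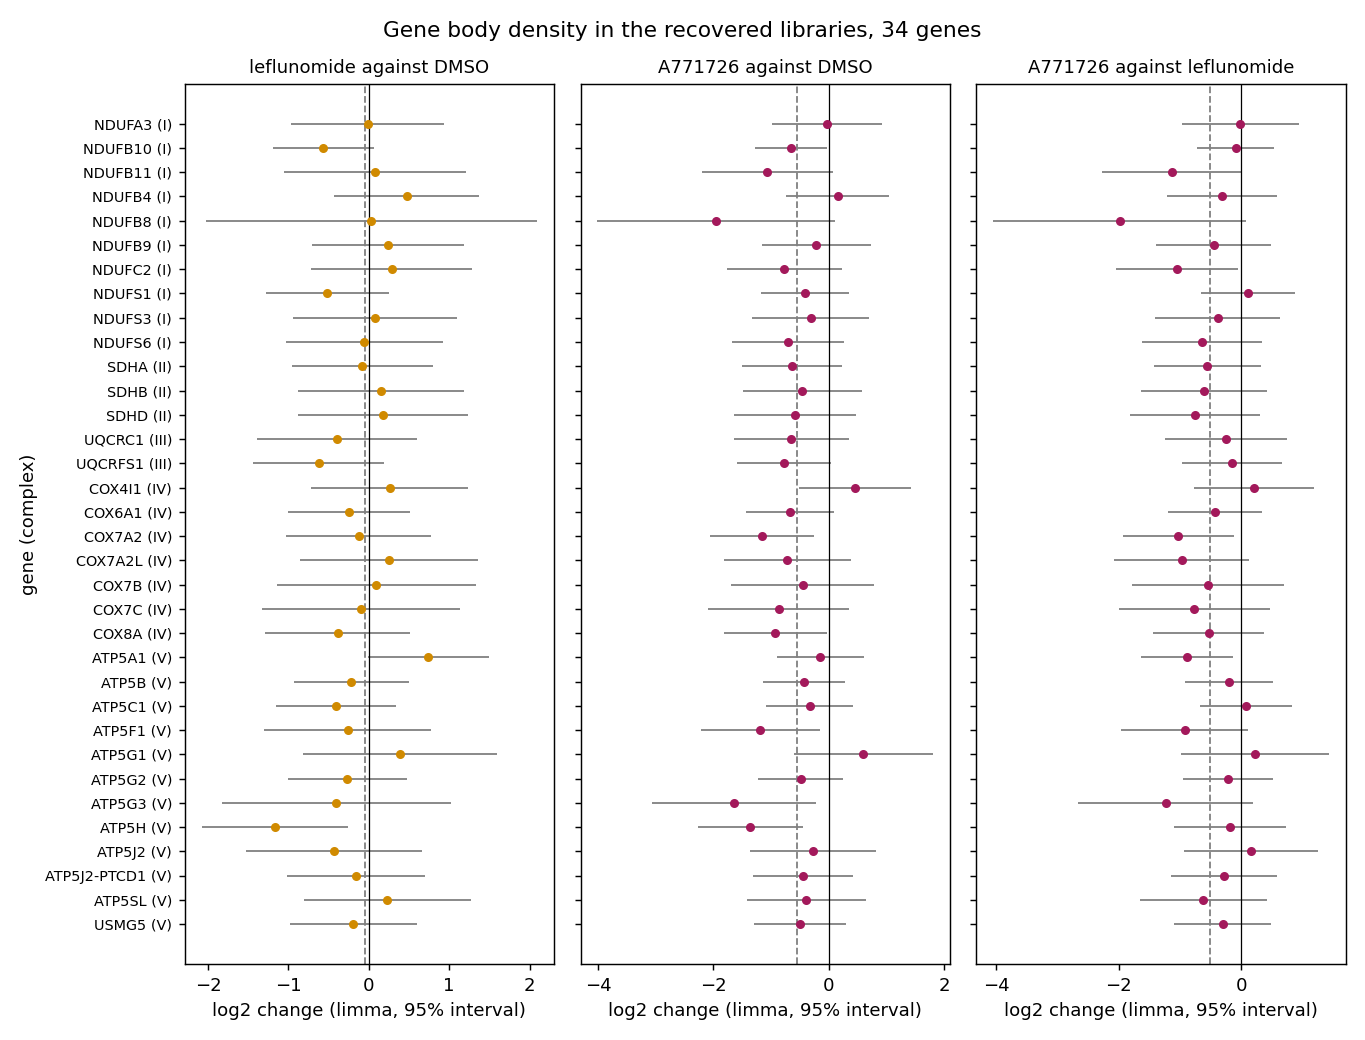
Limma log2 changes of gene body density with 95% intervals for the 34 genes with recovered libraries, with the complex in brackets. The dashed line is the median of all 4984 genes in the fit, −0.05, −0.54 and −0.51 from left to right, and most intervals cover both that line and 0.

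The replicates themselves differed by gene. Libraries of 1 group were more than 2-fold apart for 4 of 42 recovered genes of the chain with leflunomide, 15 of 44 with A771726 and 5 of 48 in DMSO, beside 11.5%, 22.5% and 16.7% of all recovered genes in the same groups. In the 29 genes whose values could be assigned to a library, the median density was 0.0457 and 0.0419 with leflunomide, 0.0347 and 0.0292 with A771726, and 0.0441 and 0.0449 in DMSO.

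A771726 and leflunomide, given at the same dose for the same time, were compared with each other. They differ in that the isoxazole ring of leflunomide is open in A771726. The median log2 change of A771726 against leflunomide was −0.30 over the 54 genes and −0.47 over all genes tested, with 14 genes above 0 and 40 below, beside 84.7% of all genes below 0. One gene was at least 2-fold higher, the pseudogene UQCRBP1 (2.06), beside 1.03% of all genes, and 5 were at least 2-fold lower, beside 12.4%. The 5 became 1 with a pseudocount 5 times larger. The 5 were NDUFB8 (−1.29), NDUFB11 (−1.16), NDUFV3 (−1.09), COX7A2 (−1.06) and ATP5J (−1.01). In the recovered libraries, 0 of 34 genes had both A771726 libraries above and 14 had both below the leflunomide pair, beside 2.17% and 55.7%. For 34 genes compared, limma found no difference at an adjusted p of 0.05, and at an unadjusted p of 0.05 it gave 0 higher and 4 lower, beside 0.341% and 14.9% of all genes. For COX7A2 the log2 change was −1.02 (95% interval −1.93 to −0.12, adjusted p = 0.32), and for ATP5A1 it was −0.89 (95% interval −1.64 to −0.13, adjusted p = 0.32). For ATP5H, low with both compounds, the log2 change between them was −0.19, and its interval of −1.10 to 0.72 leaves room for a difference of about 2-fold in the direction of lower density with A771726. For NDUFB10 the change was −0.09, with an interval of −0.72 to 0.53.

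By order of the 3 group means, 21 of the 54 genes were lowest with A771726, intermediate with leflunomide and highest in DMSO, beside 43.5% of all 8706 genes tested. Another 18 were highest with leflunomide and lowest with A771726, beside 32.9%. Both compounds were below DMSO in 32 genes, beside 52.4%, and both above it in 3, beside 11.4%. Both comparisons with DMSO share the DMSO libraries, so these counts are not independent of each other.

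Promoter density was read from few reads. The read-through locus ATP5J2-PTCD1 has the promoter values of ATP5J2, and without it the promoters of the 28 other genes with known libraries summed to 172 and 108 reads with leflunomide, 167 and 128 with A771726, and 123 and 75 in DMSO. The promoter was at 0 in 11 of the 55 genes with leflunomide, 11 with A771726 and 7 in DMSO, beside 34.9%, 39.7% and 42.9% of all gene symbols in the same groups. In the 51 genes that passed the promoter filter, the median log2 change of the group means with a pseudocount of 0.01735 was 0.03 with leflunomide, beside 0.22 for all genes tested. At least 2-fold higher were 9, beside 30.6%, and at least 2-fold lower were 13, beside 16.0%. With A771726 the median was −0.37, beside 0.00, with 5 genes higher and 14 lower, beside 20.8% and 26.0%. Of A771726 against leflunomide the median was −0.32, beside −0.30, with 3 higher and 13 lower, beside 13.5% and 30.6%.

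Single promoters showed both directions. SDHB had a mean promoter density of 0.211 with leflunomide, 0.0241 with A771726 and 0.0809 in DMSO, which came to 10 and 2 reads in the leflunomide libraries and 2 and 0 in the A771726 libraries. NDUFB4 had 0.146 with leflunomide, 0.0602 with A771726 and 0.339 in DMSO. Its leflunomide libraries held 3 and 5 reads, its A771726 libraries 5 and 0, and its DMSO libraries 6 and 8. ATP5H, whose gene body was lower with both compounds, had a promoter density of 0.272 with leflunomide, 0.341 with A771726 and 0.353 in DMSO. The densest promoter, picked here after its value was seen, was that of USMG5, a small membrane subunit of the ATP synthase, with 0.798 and 1.09 in the leflunomide libraries, 0.505 and 0 in the A771726 libraries, and 0.525 and 0.416 in the DMSO libraries. The A771726 value thus rests on 21 reads in 1 library.

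**Figure D4:**
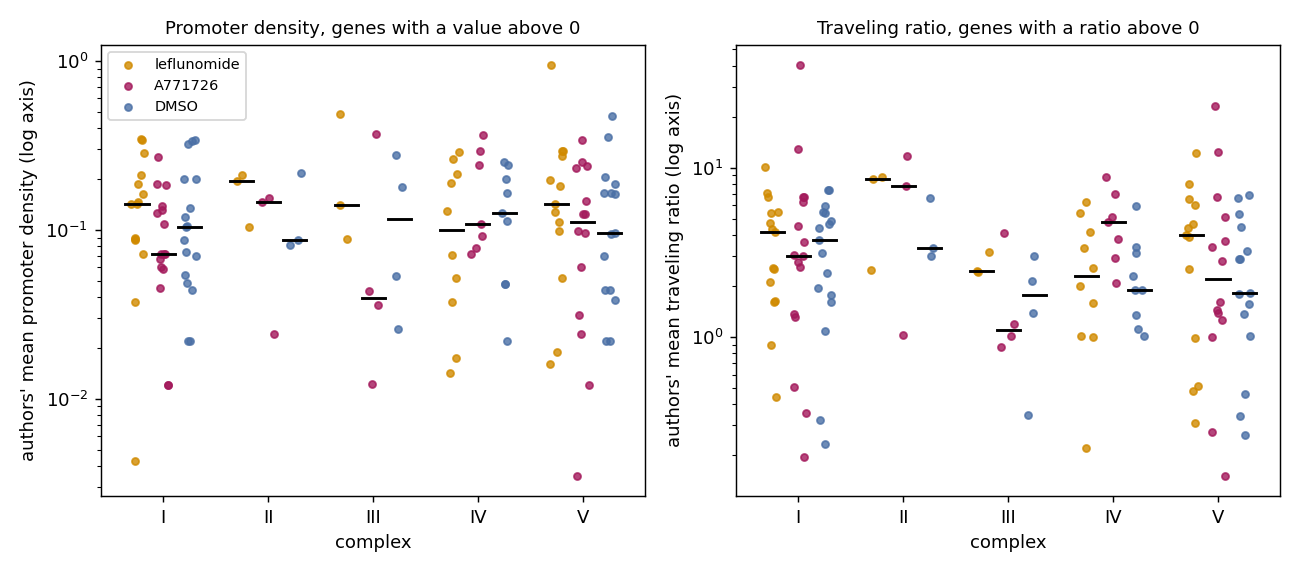
The authors' mean promoter density (left) and mean traveling ratio (right) of the respiratory chain and ATP synthase genes by complex, for leflunomide, A771726 and DMSO from left to right, on log axes and for values above 0. Points are genes and black bars are medians: the groups overlap in every complex, and DMSO ratios end below 7.5.

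The traveling ratio was compared in 35 genes with a ratio above 0 in all groups. The tables hold no DMSO ratio above 7.5, while ratios with either compound exceed it. How this bears on the ratio, promoter and gene body changes against DMSO, and on the all-gene shares, was not tested. The median log2 change with leflunomide was 0.41, beside 0.27 for all 5173 genes tested, with 8 genes at least 2-fold higher and 4 lower, beside 27.9% and 15.3%. With A771726 the median was 0.25, beside 0.42, with 10 higher and 4 lower, beside 34.6% and 17.1%. Of A771726 against leflunomide it was 0.17, beside 0.15, with 6 higher and 8 lower, beside 26.9% and 20.9%. The highest ratio, 40.3 for NDUFB8 with A771726, against 7.34 in DMSO, stands beside the library with a gene body density of 0.0021. ATP5G3, with a ratio of 23.3 with A771726 and 2.89 in DMSO, likewise has 1 A771726 library of low gene body density. For ATP5H the ratio was 7.97 with leflunomide, 12.3 with A771726 and 4.47 in DMSO.

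Genes that build, supply or regulate the chain were described from fixed lists, by counts of gene body density changes at 2-fold. Only listed genes that were present and passed the filter were counted. These were 15 of 24 assembly factors of complexes II to V, 5 of 15 of complex I, and 12 of 22 ubiquinone and cytochrome c genes. Counted as well were 7 of 16 regulators, 8 of 11 carriers, channels and peroxide-defence genes, and 7 of 14 citric acid cycle genes. Of 15 assembly factors of complexes II to V, 5 were lower with A771726, beside 18.5% of all genes tested, and none with leflunomide, beside 4.49%. They were BCS1L (log2 change −2.27), which inserts the iron-sulfur protein into complex III, SDHAF1 (−1.36) of complex II, and SCO1 (−1.22), FAM36A (−1.03) and LRPPRC (−1.03), which serve complex IV. With every change taken relative to the median gene, 1 of the 15 was at least 2-fold lower, beside 5.73% of all genes. BCS1L had 0.0289 and 0.0695 with leflunomide, 0.0245 and 0.0087 with A771726, and 0.0817 and 0.0948 in DMSO, in 3 steps without overlap. The share of all genes with these 3 steps was not computed. The limma adjusted p was 0.999 with leflunomide and 0.13 with A771726 against DMSO, and 0.32 between the compounds, so no step passed. Of 5 assembly factors of complex I, none passed 2-fold in gene body density with either compound. Of 12 genes of ubiquinone and cytochrome c, 1 was higher with leflunomide, beside 1.84% of all genes tested. It was COQ6, a ubiquinone-ring hydroxylase. COQ6 had 0.0275 and 0.0298 with leflunomide, 0.0191 and 0.0142 with A771726, and 0.0099 and 0.0138 in DMSO. Both compounds lay above DMSO, a placement of 14.1% of all genes with leflunomide and 2.01% with A771726. The limma adjusted p was 0.96 with leflunomide and 0.42 with A771726, so neither change of COQ6 passed.

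DHODH itself had 0.0204 and 0.0186 with leflunomide, 0.0246 and 0.0087 with A771726, and 0.0136 and 0.0113 in DMSO. The leflunomide pair was above the DMSO pair, as in 14.1% of all genes with recovered libraries. The A771726 pair lay on both sides of the DMSO pair. For DHODH the limma adjusted p was 0.999 with leflunomide and 0.75 with A771726, so neither change passed. Of 7 regulators of mitochondrial biogenesis, 2 were lower with A771726, beside 18.5% of all genes tested, and none passed 2-fold with leflunomide. The 2 were the mitochondrial DNA polymerase gene POLG (−1.33) and the nuclear receptor gene ESRRA. ESRRA had means of 0.119 with leflunomide, 0.0488 with A771726 and 0.0998 in DMSO. Of 8 carriers, channels and peroxide-defence genes, 2 were lower with A771726, beside 18.5% of all genes tested, and none with leflunomide, beside 4.49%. Both encode ADP/ATP carriers, which exchange the product of the ATP synthase for ADP: SLC25A5 (−1.28) and SLC25A6 (−1.13). Relative to the median gene, none of the 7 regulators or these 8 genes was at least 2-fold lower with A771726. The share of all genes was then 5.73%. SLC25A5 had 0.0511 and 0.0583 with leflunomide, 0.0253 and 0.0564 with A771726, and 0.101 and 0.104 in DMSO, with all libraries of the compounds below DMSO. The limma adjusted p was 0.97 with leflunomide and 0.15 with A771726, so neither change passed. Of 7 genes of the citric acid cycle, none passed 2-fold in gene body density against DMSO, and CS (−1.10) and IDH2 (−1.26) were lower with A771726 than with leflunomide. In that comparison BCS1L (−1.45), SCO1 (−1.43), COQ10A (−1.29), ESRRA (−1.24), TXN2 (−1.03) and PRDX5 (−1.08) of the lists were also past 2-fold, all lower with A771726. Of all genes tested, 12.4% were at least 2-fold lower there.

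Reads over small genes can come from neighbours. In GENCODE 29, 34 of the 53 genes found there overlapped another gene, 17 on the same strand and 27 on the other. ATP5H overlaps KCTD2 on the other strand, and ATP5B holds the small nucleolar RNA gene SNORD59A. Whether the authors counted by strand is not given in the sources used here, so values of overlapping genes are uncertain.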

How the data were processed

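A375 cells were profiled by GRO-seq in 6 samples, 2 each for leflunomide, A771726 and DMSO. The submitters' processing notes name Bowtie 0.12.9, bedtools and the build hg18, and the window limits and scaling between libraries are not stated. Per the file headers, the deposited values are the authors' mean gene body signal and mean promoter score (both read densities), the mean traveling ratio and its fold over DMSO. They write A771762, which was read as A771726. No depth per sample can be given, since the tables hold no total counts.

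Log2 changes were taken from the group means, after a filter at the 30th percentile of row means, with pseudocounts of 0.0022 (gene body) and 0.01735 (promoter). They understate changes of low genes, and means over a group allow no test. Library densities, printed to 4 decimals, were recovered from the means and the ratio, which has 9 decimals below 10. With the ratio shifted by a relative 1e-06, 0.441%, 1.17% and 0.730% of rows (leflunomide, A771726, DMSO) still had a solution. Recovered values were tested with limma 3.58.1 (R 4.3.3, trend and robust) on the log2 scale, over 4984 genes, with Benjamini-Hochberg adjustment. Both steps were also run on simulated data, with outcomes not given here. The limma simulation gave every gene the same spread, unlike these libraries, so it does not measure the power for single genes here. Python 3.11.15, pandas 2.3.3, numpy 2.4.6 and matplotlib 3.10.9 were used.

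The genes and lists were chosen with earlier results of these data known. Named are the 4 highest and 4 lowest genes per comparison, those past 2-fold, the densest of each complex, complex II, DHODH and list genes past 2-fold. Alternatives covered pseudocount, filter, choice of row, centring, fold threshold, limma settings and leaving out libraries. Promoter sequences came from RefSeq on GRCh38.p14, and no coordinates were converted between builds.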

Additional observations from a re-analysis of the deposited data

Results flagged for a closer look

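ATP5A1, the alpha subunit of the ATP synthase, drew attention because its libraries moved in opposite directions with the compounds. Both leflunomide libraries (0.0388 and 0.0518) were above and both A771726 libraries (0.0231 and 0.0234) were below the DMSO pair (0.0280 and 0.0240). The difference between the compounds was a log2 change of −0.89 for A771726 against leflunomide, which limma placed at an adjusted p of 0.32, so it did not pass. The gap between the A771726 and DMSO pairs was small, 0.0234 against 0.0240, and in the gene's other transcript the A771726 pair (0.0184 and 0.0181) overlapped the DMSO pair (0.0242 and 0.0178), so the pattern depends on the transcript used. The same pattern was found in 257 of 4984 genes (5.16%).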

How the results depend on the processing

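No paired analysis was possible because the columns carry no replicate letters. Each value moved as follows against the one in the report. With densities centred on the median gene, the median log2 gene body change was 0.051 for A771726 against DMSO, with 1 gene at least 2-fold higher and 0 lower, and 0.172 for A771726 against leflunomide, with 0 lower. Centred promoter medians were −0.189 for leflunomide against DMSO and −0.0179 for A771726 against leflunomide (6 higher, 8 lower). Centred ratio medians were 0.14 (7 lower) for leflunomide and −0.17 for A771726 against DMSO, and 0.0219 for A771726 against leflunomide. Recovered libraries centred each on its median gene gave −0.0331 for A771726 against DMSO and 0.0671 against leflunomide.

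With a pseudocount 5 times larger, gene body counts of 2-fold lower genes were 2 for leflunomide and 4 for A771726 against DMSO, and 1 for A771726 against leflunomide. Promoter counts were then 1 higher and 0 lower, 0 higher and 4 lower (median −0.24), and 1 higher and 4 lower (median −0.19) in the same comparisons. At 1.5-fold, gene body counts were 1 higher and 8 lower for leflunomide, 1 higher and 25 lower for A771726, and 15 lower for A771726 against leflunomide. Promoter counts higher at 1.5-fold were 16, 8 and 9 in the same order. Ratio counts were 15 higher and 7 lower for leflunomide and 10 higher for A771726 against leflunomide. The quotient of the group means gave a median ratio change of −0.000544 for A771726 against leflunomide. With a stricter filter, and among subunits alone (an alternative chosen after seeing the data), 0 genes were at least 2-fold higher with A771726 than with leflunomide.

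Leaving out each recovered library in turn, in genes with the library known (a restriction chosen after seeing the data), the median limma change ran from −0.15 to −0.04 for leflunomide and from −0.66 to −0.32 for A771726 against DMSO (−0.41 without A771726 library 2), and from −0.47 to −0.20 for A771726 against leflunomide. A lone library was then assumed to vary like the other groups. For NDUFB8, the lone A771726 library 2 held 0.0021, below the pseudocount of 0.0022. Calls ran from 0 to 1 in A771726 against DMSO, the 1 being NDUFB8 without A771726 library 1, where 19 of all 3450 genes were called, and were 0 in the other comparisons. Of 480 values of single genes, 27 changed sign. Why values moved was not tested, beyond the centring and thresholds themselves. The 2 libraries a group and the few promoter reads limit the precision for single genes.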
